A study of Mus musculus with 20 samples.

Results

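Gastrokine-high (Gkn-high) cells were the cells of the reprogramming cultures with the highest share of transcripts from Gkn1 and Gkn2. In each day 7, day 14 and day 28 library, cells with at least 500 genes, at least 2000 UMIs (unique molecular identifiers, which count captured transcripts) and under 5 UMIs of the fibroblast collagens Col1a1, Col1a2 and Col3a1 were ranked by the share of their UMIs in Gkn1 and Gkn2. The top 10% were taken, which gave 2544 Gkn-high cells of 25467 filtered cells and of 134279 cells in the whole series. They were compared with the 15389 cells at or below the median share of the same library (Gkn-low cells). Because the cells were selected on Gkn1 and Gkn2, their own difference between the classes is a description and carries no test, and the same holds for every other gene compared between the classes of these 6 libraries. Only the change of such a difference between days was tested, on classes made by the same rule.

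The series followed extraembryonic endoderm (XEN) stem cells converted to induced pluripotent stem cells (XEN-iPS), and embryonic stem (ES) cells converted to induced XEN (iXEN) cells, by single-cell RNA-seq of 2 technical duplicates per condition. XEN cells were of the line 3F-4, which is 1 derivation, and carried Col1A1TetO-OKSmCh/TetO-OKSmCh (doxycycline-inducible Oct4, Klf4 and Sox2 with mCherry), R26M2rtTA/M2rtTA and the reporter Oct4-GFPTg/Tg in every XEN-derived group. Starting XEN cells had no doxycycline and were kept for 7 days on fibroblast feeders in serum and LIF with ascorbic acid and a GSK3 inhibitor. For the day 7, day 14 and day 28 libraries, cells were induced with doxycycline, sorted for mCherry and plated on mitomycin-treated fibroblast feeders. They were kept in serum and LIF with doxycycline, ascorbic acid and a GSK3 inhibitor. Each of these libraries pooled 4 subpopulations sorted by SSEA-1 and Oct4-GFP at roughly equal proportions, so that shares of cells are not those of the culture. XEN-iPS cells were sorted at day 28 as positive for SSEA-1 and Oct4-GFP and negative for PDGFRα, then kept on feeders in serum and LIF for 7 days. ES and iXEN cells carried Col1A1TetO-Gata4-mCherry/+ (a doxycycline-inducible Gata4-mCherry fusion), R26M2rtTA/+ and the reporter Gata6H2B-Venus/+, with doxycycline given for 9h, 24h and 48h in the intermediate groups. iXEN cells had 4 days of doxycycline and were collected 7 days after it was withdrawn. The duplicates are described as technical, so the p-values below measure the spread between duplicates and not that between cultures. Day 7 and day 14 were sequenced in the same run and day 28 in another, so a difference of day 28 from the earlier days and a difference between runs cannot be told apart. The filtered cells of the 6 libraries summed to between 50271936 and 110081219 UMIs. Pairs of these libraries shared between 20 and 88 cell barcodes.

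Gastrokines are small secreted proteins of the stomach, made in quantity by the mucous cells that line the gastric surface and pits. Gkn2 forms a disulfide-linked dimer with the trefoil peptide Tff1, which is secreted with the gastric mucus. XEN cells derive from the primitive endoderm, which forms the yolk sac layers: the parietal endoderm, which lays down a thick basement membrane of laminin and type IV collagen, and the visceral endoderm, which absorbs and secretes nutrients, transport proteins and lipoproteins. Gata4, Gata6, Sox17 and Foxa2 are regulators of both embryonic and extraembryonic endoderm.

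Gkn1 (ENSMUSG00000030050) lies on the minus strand at chr6:87345650-87350942 and Gkn2 (ENSMUSG00000030049) on the plus strand at chr6:87373357-87379497 of GRCm38. The 220 bases that end 31 bases before each RefSeq start (GRCm38.p6, written 5′ to 3′ on the strand of the gene) are shown because the pair is divergently placed and defines these cells. Capitals mark matches to GATAAG for Gata factors, TGANTCA for AP-1 and TGTTTNC for Fox factors, searched on both strands. The Gkn1 window is chr6:87350946-87351165 and the Gkn2 window chr6:87373115-87373334.
Gkn1: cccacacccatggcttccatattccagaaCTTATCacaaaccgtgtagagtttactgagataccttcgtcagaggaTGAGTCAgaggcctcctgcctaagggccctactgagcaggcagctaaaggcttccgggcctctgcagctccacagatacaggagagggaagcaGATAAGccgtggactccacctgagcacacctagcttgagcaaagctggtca
Gkn2: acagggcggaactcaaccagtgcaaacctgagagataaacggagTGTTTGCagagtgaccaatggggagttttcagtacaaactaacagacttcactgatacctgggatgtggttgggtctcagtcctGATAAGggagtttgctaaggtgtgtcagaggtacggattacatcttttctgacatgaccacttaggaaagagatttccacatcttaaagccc
In the Gkn1 window, GATAAG was found at bases 170 to 175, its reverse complement CTTATC at bases 30 to 35, and TGAGTCA at bases 77 to 83. In the Gkn2 window, TGTTTGC was found at bases 45 to 51 and GATAAG at bases 129 to 134. No 2 matches overlapped. Of 32851 RefSeq start windows of the same length, 5.89% held GATAAG, 6.12% held TGANTCA and 15.93% held TGTTTNC. These matches describe letters in a window and say nothing of binding.

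In the filtered cells of whole libraries, Gkn1 and Gkn2 were found where cells were endodermal and were at or near 0 in ES-derived cells before iXEN. Levels are given as CPM, which are UMIs of a gene per 1000000 UMIs of the cells summed. Gkn1 stood at 43.5 and 132 CPM in the XEN duplicates, at 13.4 and 14.3 at day 7, at 395 and 235 at day 14, and at 435 and 857 at day 28. Gkn2 stood at 141 and 224 CPM in XEN, at 32.8 and 26.8 at day 7, at 925 and 388 at day 14, and at 562 and 1251 at day 28. Both genes were lowest at day 7 among these 4 conditions, without overlap with the others, and the ranges of day 14 and day 28 overlapped for Gkn2 and not for Gkn1. XEN-iPS held 0.864 and 0.0197 CPM of Gkn1 and 2.12 and 0.0787 of Gkn2. ES libraries held 5 UMIs of each gene in all, and the 9h, 24h and 48h libraries held between 0 and 4 UMIs of Gkn1 and between 0 and 1 of Gkn2. Among these libraries a count of 0 allows up to 0.0523 CPM at the shallowest depth, from 3 counts. iXEN cells, made from ES cells without the reprogramming factors, held 34.1 and 108 CPM of Gkn1 and 92.6 and 174 of Gkn2, which overlapped the XEN levels.

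**Figure D1:**
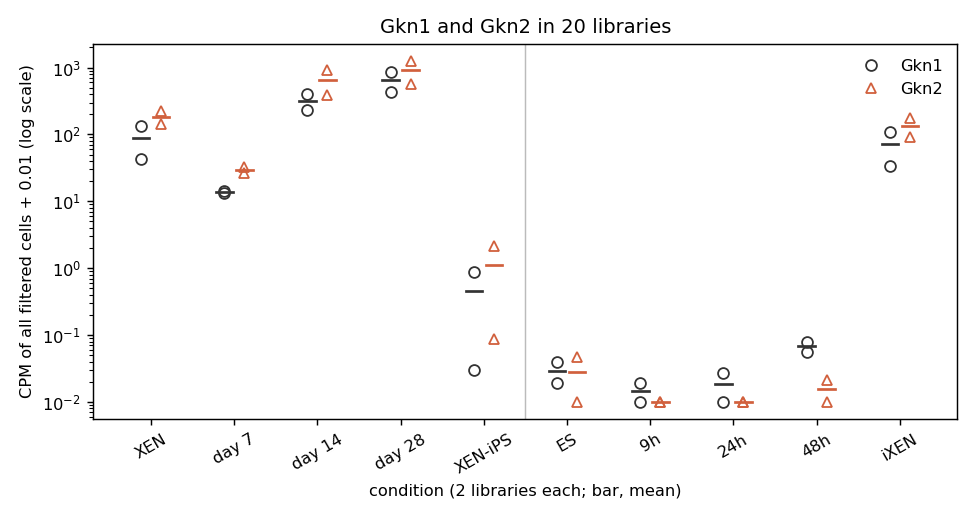
Gkn1 (circles) and Gkn2 (triangles) in the filtered cells of each of the 20 libraries, as CPM with 0.01 added on a log axis, 2 libraries per condition with bars at the mean. Day 14 and day 28 libraries lie between 235 and 1251 CPM, XEN and iXEN between 34.1 and 224, day 7 between 13.4 and 32.8, and the ES, 9h, 24h and 48h libraries at or under 0.0697 CPM.

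The 20 libraries entered a single edgeR quasi-likelihood fit of 16876 genes, and p-values were adjusted by Benjamini-Hochberg. Against XEN, day 7 was lower by log2 values of -2.58 for Gkn1 (SE 0.77, adjusted p = 0.02398) and -2.52 for Gkn2 (SE 0.85, adjusted p = 0.04333), where 6% of all genes were called lower and 12.6% higher. Day 28 was above XEN by 2.76 on the log2 scale for Gkn1 (SE 0.77, adjusted p = 0.01122, 21.4% of genes called higher and 8.5% lower), and Gkn2 at 2.20 did not pass (SE 0.83, adjusted p = 0.05146). Within a single run, Gkn1 rose from day 7 to day 14 by 4.47 (SE 0.84, adjusted p = 0.03325, 0.284% of genes called higher and 0.0948% lower), and the 4.44 of Gkn2 missed the threshold (SE 0.92, adjusted p = 0.05953). Day 28 against day 14 did not pass (Gkn1 0.87, adjusted p = 0.53, and Gkn2 0.29, adjusted p = 0.8812, with 7.19% of genes called higher and 0.64% lower). Day 14 against XEN did not pass for Gkn1 (1.89, adjusted p = 0.0803) or Gkn2 (1.91, adjusted p = 0.111), where 12.3% of genes were called higher and 5.54% lower. These calls lie near the threshold, and those of day 7 against XEN were lost with DESeq2 or without XEN replicate 2 (Gkn1 -1.53, Gkn2 -2.12). The Gkn2 call of day 7 against XEN was lost without any of the 4 libraries (-2.12 to -2.85). The Gkn1 calls of day 7 against XEN and day 14 against day 7 were also lost without day 7 replicate 1 (-2.56 and 4.45) or replicate 2 (-2.68 and 4.55), and the latter without day 14 replicate 1 (3.95) or replicate 2 (4.90). That of day 28 against XEN was lost without XEN replicate 1 (2.16) or day 28 replicate 2 (2.23). XEN-iPS lay below XEN by log2 values of -7.68 for Gkn1 (adjusted p = 1.672e-05) and -7.45 for Gkn2 (adjusted p = 7.122e-05), with 17.5% of genes called lower and 27.9% higher. XEN-iPS replicate 2 held 1 UMI of Gkn1 and 4 of Gkn2, and without replicate 1 the values were -12.28 and -11.42. iXEN lay above ES for both genes (adjusted p = 4.199e-06 and 1.232e-05), with 21.7% of genes called higher and 20.8% lower.

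The cells were ranked by their gastrokine share, so that a large part of the gastrokine UMIs lies in the Gkn-high cells by the rule itself. These cells held 88.7% and 92.9% of all Gkn1 and Gkn2 UMIs of the day 7 libraries, 62.5% and 79.4% at day 14, and 83.5% and 79.8% at day 28. At day 7 only 18.3% and 14.6% of filtered cells held any gastrokine UMI. Their median number of gastrokine UMIs was 4 and 3 at day 7, 82 and 51 at day 14, and 110.5 and 417 at day 28. The cell with the highest share spent 0.695% and 0.832% of its UMIs on the pair at day 7, 8.29% and 9.49% at day 14, and 13.4% and 11.9% at day 28. Cells above a share of 1% were 0 of 2442 and 0 of 5312 at day 7, with Wilson 95% upper bounds of 0.157% and 0.0723% of filtered cells for counting error only. They made up 3.27% and 1.47% of filtered cells at day 14 and 3.62% and 8.76% at day 28, against 0.134% and 0.293% in XEN and 0.169% and 0.312% in iXEN.

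A fixed top 10% therefore means different cells at different days, and so does the Gkn-low class. At day 7 the median share was 0, and the Gkn-low cells, 1995 of 2442 and 4536 of 5312, held no gastrokine UMI. At day 14, 49.0% and 14.3% of Gkn-low cells held one, and at day 28 39.8% and 84.4%. The last cell inside the class had 0.00756% of UMIs in the pair (1 UMI) and the first outside 0.00753% (2 UMIs) in day 7 replicate 1, and 0.00665% and 0.00661% in replicate 2. At day 14 the limits were 0.397% on both sides in replicate 1 and 0.157% on both sides in replicate 2, and at day 28 they were 0.279% inside and 0.277% outside in replicate 1, and 0.754% and 0.741% in replicate 2. At day 7, 31.1% and 44.8% of Gkn-high cells held fewer than 3 gastrokine UMIs, and 0 did at day 14 and day 28. With cells without an endoderm profile as the background (defined below), thinned to 2000 UMIs, the share of cells with a gastrokine UMI at day 7 was 1.52% and 1.09%, against 5.09% and 4.80% of endoderm cells. At day 14 it was 16.5% and 7.21% against 46.3% and 27.9%, and at day 28 9.23% and 16.6% against 36.6% and 47.9%. The share was higher in endoderm cells in all 6 libraries, but the background at day 7 was only 66 and 184 cells. No counting error was worked out for these shares, so that day 7 is not shown to lie above the background. The median depth of the background cells before thinning was 5342.5 and 12134 UMIs at day 7 and 42529 in the deepest library, and that of endoderm cells 12039 to 28380.

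**Figure D2:**
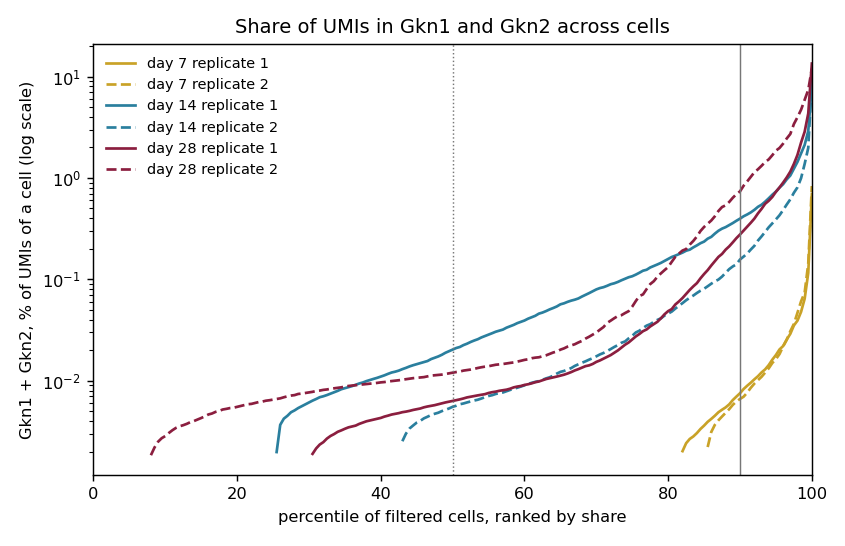
Share of UMIs in Gkn1 and Gkn2 (percent, log axis, cells at 0 not drawn) against the percentile of filtered cells ranked by that share, 1 line per library. The lines of the 4 day 14 and day 28 libraries lie above the 2 day 7 lines at the solid line that marks the top 10%, where the shares are 0.157% to 0.754% against 0.00665% and 0.00756%, and the dotted line marks the median.

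Over all filtered cells of a library, which were not chosen on the pair, the levels of Gkn1 and Gkn2 went together. The Spearman correlation of the 2 levels, as CPM of each cell, was 0.454 and 0.5001 at day 7, 0.703 and 0.609 at day 14, and 0.550 and 0.607 at day 28. It was taken over 1896 to 5649 cells that share a library and differ in depth, and the part of depth in it was not tested. In the summed Gkn-high cells Gkn1 reached 101 and 128 CPM at day 7, 3225 and 2352 at day 14, and 4851 and 10599.8 at day 28, while Gkn2 reached 254, 243, 6573, 3653, 6181 and 15094 CPM. The third family member, Gkn3, which lies next to Gkn2 on the opposite strand, averaged 0.179 CPM in Gkn-high cells. Of the other genes within 500 kb and over 10 CPM, Gfpt1 and Aak1 were higher in 6 of 6 libraries, Nfu1 and Isy1 lower, and Cnbp neither. Of all genes over 10 CPM, 19.7% were higher and 21.2% lower in 6 of 6. Antxr1 and Prokr1, which are under 10 CPM and so outside these shares, were also higher in 6 of 6. Antxr1 averaged 5.26 CPM in Gkn-high and 0.453 in Gkn-low cells, a mean log2 difference of 1.99 ± 0.63 (SD over the 6 libraries). Gfpt1, the first enzyme of hexosamine synthesis, was higher by 0.82 ± 0.43. Prokr1, also under 10 CPM, was higher by 0.92 and Aak1 by 0.43, and Nfu1 was lower by -0.40 and Isy1 by -0.32.

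Nearly all Gkn-high cells had an endoderm profile, by a ratio of marker lists. A cell was given an endoderm profile where its UMIs of the pluripotency list, without Dppa5a and Dppa3, were under 10% of its UMIs of the parietal endoderm list. Between 98.7% and 100% of Gkn-high cells had it in every library. The same profile was given to 5.25% and 14.7% of filtered XEN-iPS cells and to 2.08% and 0.121% of ES cells. Gkn-low cells had it in 96.7% and 96.1% of cells at day 7, 92.4% and 94.8% at day 14, and 59.1% and 50.7% at day 28, so that the Gkn-low class of day 28 was a mixture, and values with endoderm cells alone are given below where stated. Fibroblast genes summed to between 0.985 and 9.48 CPM in Gkn-high cells and between 1.36 and 26.7 in Gkn-low cells, with 0 of 15 genes over 10 CPM in either class. Their list includes Col1a1, Col1a2 and Col3a1, on which the rule filtered cells, so that a low sum was in part fixed by the rule. Genes of the 2-cell-like state summed to at most 0.456 CPM in Gkn-high cells. No doublet caller was run. Cells over 2 times the median UMIs of their library made up 1.06% to 13.9% of Gkn-high cells, and the contrast was repeated without them.

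Of the 3 other genes proposed as markers of these cells, none was higher in all 6 libraries, and Htra1 was lower. Htra1, a secreted serine protease, stood at 3.10, 6.67, 11.3, 13.9, 130 and 49.98 CPM in Gkn-high cells (replicates 1 and 2 of each day in turn) and at 8.96, 24.8, 52.6, 82.6, 164 and 129 in Gkn-low cells. It was the lower class in 6 of 6 libraries, by a mean log2 difference (with 1 CPM added) of -1.56 ± 0.75, and by -1.79 among endoderm cells alone. Igf1, a growth factor of the insulin family, was 57.2, 72.7, 52.0, 50.9, 211 and 86.0 CPM in Gkn-high and 49.7, 60.3, 84.1, 64.7, 80.1 and 58.5 CPM in Gkn-low cells. It was higher at day 7 and day 28 and lower at day 14, with a mean of 0.23 ± 0.72 that turned to -0.18 among endoderm cells alone. Aqp1, a water channel, was 3.62, 2.30, 17.6, 22.1, 98.4 and 170 CPM in Gkn-high and 4.88, 3.19, 7.92, 14.3, 23.4 and 17.2 CPM in Gkn-low cells. It was lower in both day 7 libraries (-0.35 and -0.34) and higher at day 14 (1.06 and 0.59) and day 28 (2.02 and 3.23). The cells are therefore named here by Gkn1 and Gkn2 alone.

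Beyond the gastrokines, 219 of 7211 genes over 10 CPM in the higher class (3.04%) were higher in Gkn-high cells in all 6 libraries by a mean log2 difference of at least 1, and 147 (2.04%) were lower, around a median over all genes of 0.00. Among endoderm cells alone the counts were 161 (2.27%) and 88 (1.24%). Of the 219, 147 stayed on the list, which is 67.12% of it and 91.3% of the endoderm-only list, and of the 147 that were lower, 71 stayed (48.3% and 80.7%). The counts rested on day 28 replicate 2, without which they were 141 and 92, and without day 7 replicate 1 the lower count was 238. With no limit on size, 19.7% of the 7211 genes were higher and 21.2% lower in 6 of 6 libraries, and counts of list members in 6 of 6 below are read against these shares. Since 10 CPM was needed only in the higher class, some list members passed this minimum through a single class.

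Tff1, the trefoil peptide that pairs with Gkn2, had the largest difference. Its CPM was 464 and 186 at day 7, 946 and 141 at day 14, and 218 and 621 at day 28 in Gkn-high cells, against 65.6, 36.3, 86.4, 15.6, 7.60 and 5.85 in Gkn-low cells. Every Gkn-high library lay above every Gkn-low library, by a mean log2 difference of 3.81 ± 1.54, and its level differed several-fold between duplicates. Clu, which encodes the secreted chaperone clusterin, was 256, 398, 1127, 1017, 1631 and 4993 CPM against 102, 154, 187, 208, 83.3 and 134 (2.84 ± 1.58). Its level in Gkn-high cells was higher at each later day, while that in Gkn-low cells was at most 208 CPM. DPCR1, a mucin-like membrane protein, was 43.1, 47.7, 160, 107, 194 and 271 CPM against 7.27, 7.75, 31.3, 14.5, 18.2 and 8.95 (3.02 ± 0.94), with no overlap. Tesc, a calcium-binding regulator of the sodium-proton exchanger, was 10.9, 31.6, 135, 144, 119 and 183 CPM against 1.82, 5.41, 17.4, 31.2, 6.52 and 4.11 (3.11 ± 1.23). The means of these 4 genes among endoderm cells alone were 3.64, 2.62, 2.72 and 2.95.

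Cdh5, the adhesion molecule known from endothelium as VE-cadherin, was 31.4, 16.3, 85.0, 55.2, 137 and 148 CPM in Gkn-high cells against 6.35, 3.43, 16.9, 9.25, 17.0 and 6.85 (2.67 ± 0.84). The 10 endothelial and blood genes listed summed to 32.3 to 183 CPM in Gkn-high and 18.7 to 37.1 in Gkn-low cells and were higher in 6 of 6 libraries as a sum, most of which was Cdh5 in Gkn-high cells. Cdh5 and the receptor gene Tek were over 10 CPM, and Cdh5 passed the limit. Cdh5 passed the minimum of 10 CPM only through Gkn-high cells, with a mean of 9.97 CPM in Gkn-low cells. Pecam1 was between 0 and 2.0 CPM in Gkn-high cells, and Ptprc and Hbb-bs had no UMI there. The part of endothelial cells in these values was not tested. Bace2, a membrane aspartyl protease, was 17.2, 26.9, 117, 130, 234 and 313 CPM against 5.19, 6.31, 25.3, 26.6, 19.8 and 14.8 (2.62 ± 1.06). Wfdc1, a secreted protein with a WAP domain, was 22.1, 45.4, 263, 278, 471 and 514 CPM against 9.01, 20.1, 57.3, 61.6, 58.5 and 40.5 (2.22 ± 0.98). Both stood higher at each later day in Gkn-high cells, while the Gkn-low levels lay within 5.19 to 26.6 and 9.01 to 61.6 CPM. Scgb3a1, a secretoglobin of mucosal secretions, differed by 2.72 ± 1.09, Tspan8, a tetraspanin of epithelia, by 2.36 ± 1.31, and Pi16, a peptidase inhibitor, by 2.20 ± 1.22. Defa29, an alpha-defensin (3.18 ± 1.68), and Hamp2, a hepcidin (2.66 ± 2.34), belong to families of near-identical copies, so that their own counts are uncertain. With endoderm cells alone the means were 2.34 for Cdh5, 2.36 for Bace2, 1.89 for Wfdc1, 2.79 for Scgb3a1, 2.33 for Tspan8, 1.96 for Pi16, 2.95 for Defa29 and 2.57 for Hamp2.

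On the lower side, Cldn7, a tight junction claudin, was 19.3, 55.4, 1.13, 7.37, 4.09 and 2.28 CPM in Gkn-high cells against 73.2, 149, 47.9, 90.4, 35.4 and 28.3 in Gkn-low cells (-2.87 ± 1.12). Platr13, a non-coding transcript named for its association with pluripotency, was 167, 231, 31.2, 54.6, 153 and 72.3 CPM against 281, 522, 522, 923, 1106 and 989 (-2.77 ± 1.47). Bex1, a small adaptor protein best known in neurons, was 1072, 1103, 243, 245, 87.4 and 102 CPM against 1555, 1796, 738, 684, 393 and 609 (-1.51 ± 0.79), with lower levels at each later day in both classes. Apoc1, an apolipoprotein of lipoprotein particles (-2.18 ± 1.29), Coil, the scaffold of Cajal bodies (-1.59 ± 0.77), and Ybx3, a cold shock domain protein that binds RNA (-1.52 ± 0.90), were also lower in 6 of 6. For these 6 genes the endoderm-only means were -3.23, -2.41, -1.40, -1.50, -1.54 and -1.32. Others of the 12 lowest were closer to 0 without the cells that lacked an endoderm profile. Stmn2, a microtubule regulator, went from -3.10 to -0.51 among endoderm cells alone, Utf1 from -2.58 to -0.69, Hspb1 from -1.59 to -0.39 and Pou5f1, which encodes Oct4, from -2.19 to -1.28. Dppa5a kept -1.62 of -1.87. It was left out of the list that defines the endoderm profile, while Utf1 and Pou5f1 are in it, so that their shifts are in part set by that filter.

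**Figure D3:**
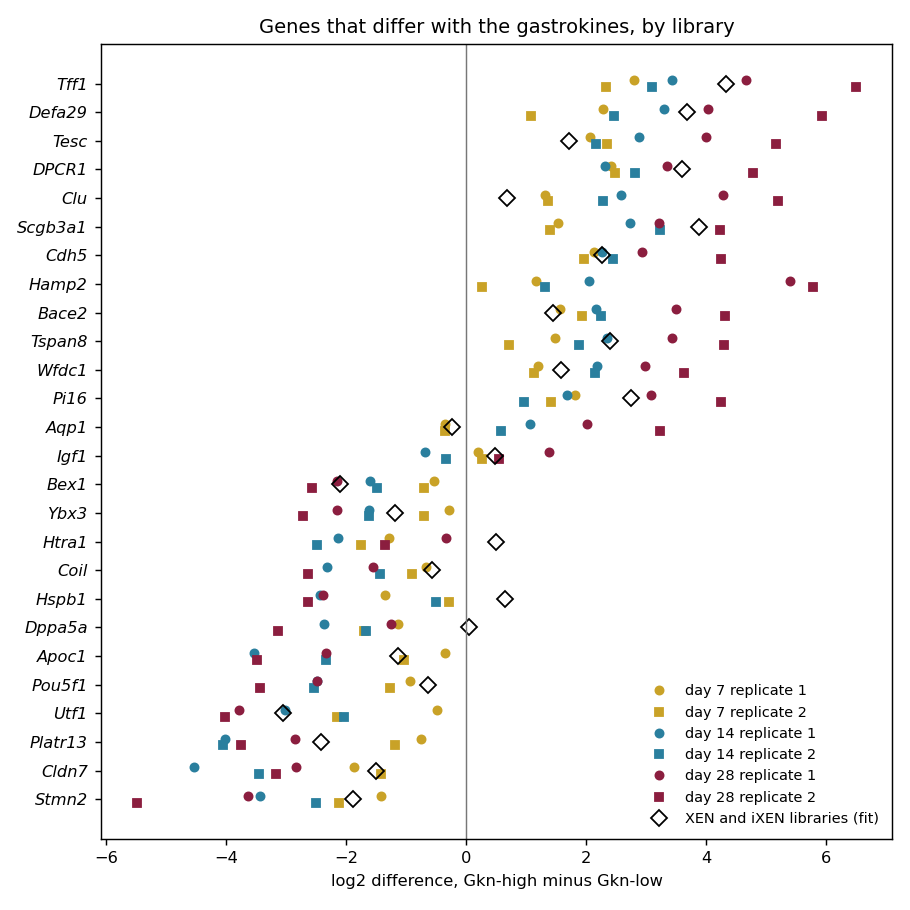
Log2 difference between Gkn-high and Gkn-low cells (log2 of CPM with 1 added) for the 12 genes with the largest and the 12 with the lowest mean difference and for Htra1, Igf1 and Aqp1, 1 symbol per library, colour by day. Open diamonds give the fold change fitted in the XEN and iXEN libraries, which had no part in the choice of genes. Tff1 has the largest mean, 3.81, and the day 28 symbols lie farthest from 0 for Clu, Hamp2 and Tesc.

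Levels were then set out by gastrokine share within the class. Cells were sorted into Gkn-low, between the classes, the top 10% without the top 1%, and the top 1%, which is 18 to 56 cells per library. The steps are made from the gastrokine share, and most genes followed were picked for their difference on the same ranking, so that these values describe the cells and carry no test. Tff1, Clu, Cdh5, Bace2, Wfdc1, Pga5, Sparc, Srgn and S100a6 stood higher at each step in all 6 libraries. Clu in day 28 replicate 2 went from 134 CPM through 765 and 4545 to 9547, and Tff1 in day 7 replicate 1 went from 65.6 CPM through 189 and 415 to 971. Sparc in day 14 replicate 1 went from 4135 CPM through 5136 and 7034 to 10761. Htra1 stood higher at each step in none of the libraries, and Igf1 in 1. Over cells thinned to 2000 UMIs, the genes whose counts correlated most with the gastrokine share were S100a6 (mean Spearman rho 0.310), Clu (0.305), Srgn (0.298), Sparc (0.265) and Nupr1 (0.235), of 3029 genes. The correlations were weak at day 7 (0.0955 to 0.178 for these 5) and reached 0.562 for Clu in day 28 replicate 2.

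Of the 20 gastric genes listed, 4 were over 10 CPM, namely Tff1, Pga5, Psca and Pgc. Psca passed this minimum only through the Gkn-high cells, so that no count over these genes is given as support. Pga5, which encodes pepsinogen A, was 721, 1791, 2096, 1717, 1777 and 1599 CPM in Gkn-high cells against 327, 763, 710, 576, 399 and 321 in Gkn-low cells (1.66 ± 0.48, and 1.39 among endoderm cells alone). Psca, a surface antigen of the stomach and bladder, was at most 0.2 CPM at day 7 and was 27.8, 4.9, 56.7 and 26.2 CPM at day 14 and day 28, against at most 0.4 in Gkn-low cells. Pgc, the other pepsinogen, was lower in 6 of 6 (-0.65 ± 0.34). The mucin gene Muc5ac, the proton pump genes Atp4a and Atp4b, and Anxa10 had no UMI in Gkn-high cells.

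The endoderm regulators were present in both classes. Their summed CPM differed by log2 values of -0.05 and -0.06 at day 7, 0.12 and 0.20 at day 14, and 0.69 and 1.20 at day 28, where Gkn-low cells were a mixture. Of 11 over 10 CPM, Foxa2 passed the size limit (66.0, 78.5, 99.1, 113, 155 and 139 CPM against 52.1, 54.5, 56.1, 66.1, 45.8 and 38.1, or 1.00 ± 0.64), and it fell to 0.69 among endoderm cells alone. Gata6 was higher in 6 of 6 by 0.70 ± 0.31 and Gata4 by 0.57 ± 0.61, while Sox17 was higher in 4 of 6. Sall4 and the endocytic adaptor Dab2 were lower in 6 of 6, by -0.53 and -0.45. With endoderm cells alone Gata6, Gata4, Sox17, Sall4 and Dab2 stood at 0.44, 0.30, 0.27, -0.54 and -0.69, and the median of the list went from 0.40 to 0.10.

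Of 20 parietal endoderm genes, 15 were higher in 6 of 6 libraries (19.7% of all genes were) and none was lower in 6 of 6, with a median difference of 0.81. Past the size limit 6 were higher, where 3.04% of all genes were. Srgn, a secreted proteoglycan, was 894, 1600, 2159, 2351, 3116 and 3658 CPM against 420, 725, 757, 947, 702 and 511 (1.67 ± 0.69). Sparc, a matrix glycoprotein that is a classical marker of parietal endoderm, was 4660, 7611, 7302, 9413, 9583 and 12016 CPM against 3520, 5452, 4135, 5217, 2978 and 2688 (1.07 ± 0.70). Thbd, Snai1, Fst and Nid1 differed by 1.44, 1.32, 1.25 and 1.23. The basement membrane genes Lama1, Lamb1, Lamc1, Col4a1 and Col4a2 were each higher in 6 of 6, by 0.64 to 0.98. Srgn, Thbd, Nid1 and Snai1 kept 1.40, 1.07, 1.03 and 1.03 among endoderm cells alone, while Fst and Sparc fell below the limit at 0.93 and 0.81. The median was 0.47 there, and this list also defined the endoderm profile.

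Visceral endoderm genes were divided. Of 13 over 10 CPM, Fgb (2.94), Ttr (1.82) and Bmp2 (1.38) were higher and Amn (-1.91), Cdh1 (-1.56) and Lrp2 (-1.35) lower, all with values beyond 1 in size also among endoderm cells alone. Of all genes, 3.04% were higher and 2.04% lower past the same limit. Ttr, the thyroxine carrier transthyretin, was 158, 445, 771, 964, 856 and 735 CPM against 84.4, 203, 241, 354, 136 and 83.6. Amn and Lrp2, with Cubn (-1.28, lower in 5 of 6), form the apical endocytic receptors amnionless, megalin and cubilin, so that the transport protein was higher and the receptor genes lower. Fn1, fibronectin, was lower by -1.33 ± 1.12 and S100a6, a calcium-binding protein, higher by 2.13 ± 1.22. With endoderm cells alone Fn1 was at -0.61, no longer past the limit, and S100a6 at 1.96.

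Pluripotency genes were lower, in fewer genes once cells without an endoderm profile were left out. Of 17 over 10 CPM, 9 were lower and 0 higher past the limit, where 2.04% and 3.04% of all genes were. Some of the 17 passed 10 CPM only through Gkn-low cells, so that this count is no support. Among them were Utf1 (3.90 CPM in Gkn-high and 63.3 in Gkn-low cells on average) and Pou5f1 (7.67 and 54.8). Among endoderm cells alone 2 were lower, against 1.24% of all genes, but the list itself helped to define the cells. Nanog was 0, 0.1, 0, 0, 3.1 and 1.1 CPM in Gkn-high cells and 0.1, 0.7, 2.8, 0.7, 59.2 and 68.3 CPM in Gkn-low cells. Klf4, which is also a reprogramming factor, was higher in 6 of 6 by 0.76 ± 0.37.

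Of 16 lysosomal and extracellular proteases and their inhibitors, 11 were higher in 6 of 6 libraries against 19.7% of all genes, with Ctsh (1.46), Adamts9 (1.38) and Ctsl (1.15) past the limit. Serpine2, an inhibitor of thrombin and urokinase, was lower (12.2, 12.5, 2.1, 2.6, 2.0 and 1.8 CPM against 43.2, 32.0, 11.9, 13.8, 12.2 and 17.8, or -1.998 ± 0.48). In the transport list, the water channel Aqp8 was higher (1.52 ± 0.90) and the membrane carbonic anhydrases Car4 (-2.92 ± 0.55) and Car12 (-1.07 ± 0.29) were lower. Of 10 TGF-beta and BMP genes over 10 CPM, the ligand Bmp2 and the antagonists Nog (1.41), Fst (1.25) and Bambi (1.21) were higher past the limit. None was lower past it, and 3.04% of all genes were higher and 2.04% lower. With no limit on size, 2 of the 10 were lower in 6 of 6, against 21.2% of all genes. In the insulin-like growth factor system, Igfbp2 (-2.36) and H19 (-1.12) were lower, and the Wnt antagonist Dkk1 was lower by -1.41. Among endoderm cells alone, 2 of the 16 protease genes were higher and 2 lower past the limit, and of 12 transport genes 1 was higher and 2 lower. Of the 10 TGF-beta and BMP genes 3 were higher and 0 lower there. Of 9 genes of the insulin-like growth factor system 0 were higher and 1 lower (Igfbp2 stood at -1.18 and H19 at -1.43). Of all genes, 2.27% were higher and 1.24% lower.

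AP-1 and immediate early genes were higher in 6 of 6 for 10 of 14 genes (19.7% of all genes were), and proliferation genes were lower in 6 of 6 for 12 of 20 (21.2% of all genes were). Past the limit, 4 AP-1 genes were higher and 2 proliferation genes lower among endoderm cells alone, where 2.27% and 1.24% of all genes were. Ccne1 (-0.54) was not one of these proliferation genes. Zfp36 (1.26), Atf3 (1.20), Jun (1.04) and Fos (1.03) passed the limit. Fos was 67.6, 87.5, 109, 234, 730 and 822 CPM in Gkn-high cells against 53.8, 72.8, 61.6, 182, 215 and 131 in Gkn-low cells. Among the proliferation genes Ccne1 (-1.07) and Cdc20 (-1.01) passed the limit, and Top2a was lower by -0.91. Of 11 cell cycle inhibitors and p53 targets 8 were lower in 6 of 6, against 21.2% of all genes, including Cdkn1a by -0.46, while Btg1 was higher by 1.10, and by 0.91 among endoderm cells alone, where no gene of this list was past the limit. Signs of RNA quality and depth differed between the classes too. At day 7 Gkn-high cells had medians of 22465.5 and 15960 UMIs against 17639 and 15395 in Gkn-low cells, median mitochondrial shares of 1.97% and 1.77% against 1.79% and 1.77%, and ribosomal protein shares of 35.1% and 34.0% against 35.8% and 35.3%. Gkn-high cells of day 14 and day 28 had medians of 10114.5, 12034, 14319 and 21578 UMIs against 12056.5, 15216, 20527 and 36949.5 in Gkn-low cells. Their median mitochondrial share was 2.69%, 3.09%, 4.23% and 3.76% against 2.19%, 2.69%, 3.39% and 3.18%, and their ribosomal protein share 33.1%, 32.2%, 27.1% and 28.1% against 38.1%, 34.1%, 35.6% and 37.2%. The part of depth and RNA quality in these differences was not tested. With cells thinned to 2000 UMIs the proposed markers and the 12 highest and 12 lowest genes kept the direction of their mean difference. The counts over the lists were not repeated with thinned cells.

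**Figure D4:**
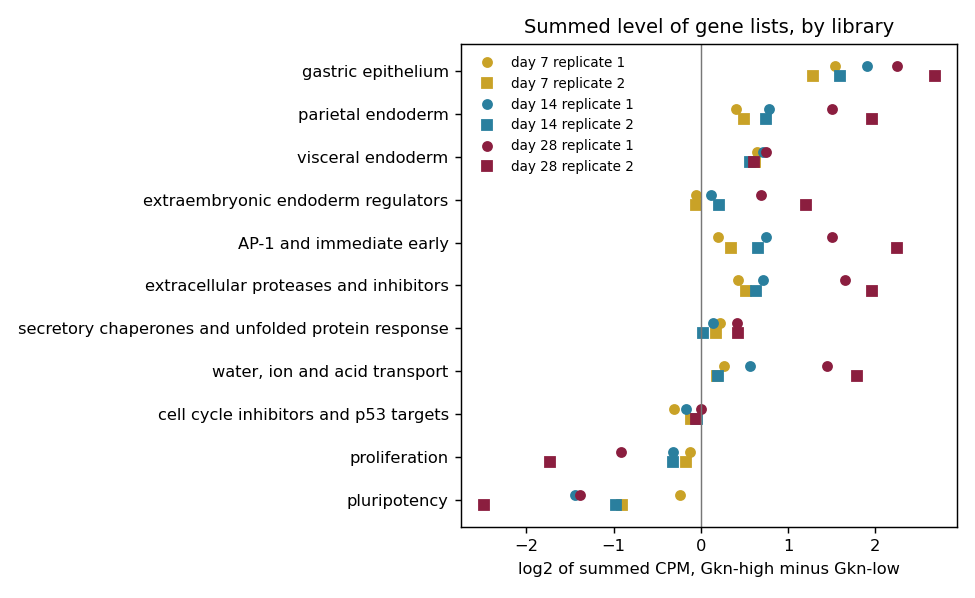
Log2 difference between Gkn-high and Gkn-low cells of the summed CPM of 11 gene lists, 1 symbol per library, colour by day. The gastric, parietal endoderm, visceral endoderm, AP-1, protease, chaperone and transport sums were higher in 6 of 6 libraries, the endoderm regulators in 4 of 6, and the proliferation, cell cycle inhibitor and pluripotency sums in 0 of 6. A sum follows its most abundant genes. Of 13 visceral endoderm genes over 10 CPM, 4 were higher and 6 lower in 6 of 6 (median -0.56), and of 12 transport genes 3 and 4. Of all genes, 19.7% and 21.2% were. In the gastric list Pgc was lower in 6 of 6.

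The same contrast was then tested in the XEN and iXEN libraries, which had no part in the rule. Gkn-high and Gkn-low cells were formed in the same way in each of these 4 libraries and compared with edgeR, with the library as a block. Under 3 gastrokine UMIs were held by 1.64%, 0.173%, 29.4% and 0.657% of Gkn-high cells (XEN, then iXEN, replicates 1 and 2). Their median mitochondrial share was 2.55%, 1.90%, 2.68% and 3.48% against 1.84%, 1.33%, 1.87% and 2.68% in Gkn-low cells. Their median depth was 15332.5, 19718, 6544 and 6417 UMIs against 14264.5, 18437.5, 8023 and 8001.5. The part of these in the contrast was not tested. Of 13273 genes, 261 (1.97%) were called higher and 295 (2.22%) lower with the limits set at 0.05 for the adjusted p and 1 for the size of the log2 fold change. Of the 219 genes higher in the day 7 to day 28 libraries, 216 were tested, and 80 of them (37.0%) were called higher, 2 were called lower and 210 had a positive fold change, with a median of 0.87. Of the 147 lower genes, 140 were tested, and 35 (25.0%) were called lower, 0 were called higher and 124 had a negative fold change, with a median of -0.68. The median over all genes was -0.04. XEN cells and those of the 3 days are of the same line, and iXEN cells are not. In the iXEN libraries alone 83 of 216 and 47 of 138 were called in the same direction, and 1 of the 216 and 0 of the 138 in the opposite one. In that fit 267 of all 12688 genes were called higher and 392 lower. In the XEN libraries alone 106 of 214 and 38 of 124 were called in the same direction, and 2 and 3 in the opposite one. There 691 of all 12193 genes were called higher and 488 lower. In the fit of all 4 libraries, called genes together numbered 556, 320 without XEN replicate 1 and 333 without XEN replicate 2.

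Tff1 led the genes of the XEN and iXEN contrast as well, at 30.0 and 399 CPM in Gkn-high cells of XEN against 0.429 and 9.04 in Gkn-low cells, and 63.4 and 6.11 CPM in iXEN against 7.85 and 1.33. It was higher in 4 of 4 libraries by 4.33 (SE 0.61, adjusted p = 0.005391), and its level again differed widely between duplicates. Cdh5 was 122, 98.4, 111 and 43.9 CPM against 27.0, 24.3, 19.5 and 7.80, higher by 2.26 (SE 0.11, adjusted p = 0.0001685). Tspan8 was 69.1, 50.5, 77.9 and 51.9 CPM against 9.51, 10.3, 18.8 and 9.22, higher by 2.39 (SE 0.15, adjusted p = 0.0004927). The stress-induced chromatin protein Nupr1 (2.78, adjusted p = 0.006982) and Clps, the cofactor of pancreatic lipase (2.46, adjusted p = 0.001305), completed the 5 highest genes over 50 CPM. Pga5 was 577, 308, 744 and 739 CPM against 230, 151, 167 and 225, higher by 1.52 (adjusted p = 0.002559). Scgb3a1 (3.89), Defa29 (3.68), DPCR1 (3.59), Pi16 (2.74), Psca (2.42), Tesc (1.71), Wfdc1 (1.59), Ttr (1.57), Egr1 (1.49), Bace2 (1.45), Aqp8 (1.23), Srgn (1.09) and Adamts9 (1.05) were called higher too.

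Car4, a membrane carbonic anhydrase, was lowest, at 17.0, 19.9, 10.7 and 8.22 CPM against 104, 106, 67.6 and 116 (-2.83, SE 0.21, adjusted p = 0.0007753). Bex1 was 432, 1113, 220 and 124 CPM against 1816, 3720, 813 and 739, lower in 4 of 4 by -2.09 (SE 0.14, adjusted p = 0.0004927). Platr13 (-2.42, adjusted p = 0.005391), the lysosomal membrane protein gene Tmem9 (-2.14, adjusted p = 0.001305) and Prtg, a membrane receptor of the early embryo (-1.97, adjusted p = 0.01179), were the others of the 5 lowest. Cldn7 (-1.51), Ybx3 (-1.18), Dkk1 (-2.42), Igfbp2 (-2.36), Car12 (-2.05), Fn1 (-1.53), Lrp2 (-1.42) and Pgc (-1.10) were also called lower. Genes that did not pass included Clu (0.68, adjusted p = 0.1257), S100a6 (1.07, adjusted p = 0.1858), Htra1 (0.49, adjusted p = 0.1929), Igf1 (0.48) and Aqp1 (-0.23). Of the AP-1 list 1 of 16 genes was called higher, where 1.97% of all genes were, and of the proliferation list 0 of 20 were called lower, where 2.22% were. Of 20 parietal endoderm genes 1 was called higher (Srgn) and 0 lower, with a median fold change of 0.47, and of 21 protease and inhibitor genes 1 was higher and 0 lower. Of 19 TGF-beta and BMP genes tested 1 was called higher (Id4) and 5 lower (Id1, Id3, Smad6, Bmp4 and Tgfb2), and Bmp2, Nog, Fst and Bambi, which were higher in the reprogramming libraries, were not among the called genes. Ptger3, a prostaglandin receptor named after its value was seen, was called lower (-1.24), against its direction in reprogramming.

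**Figure D5:**
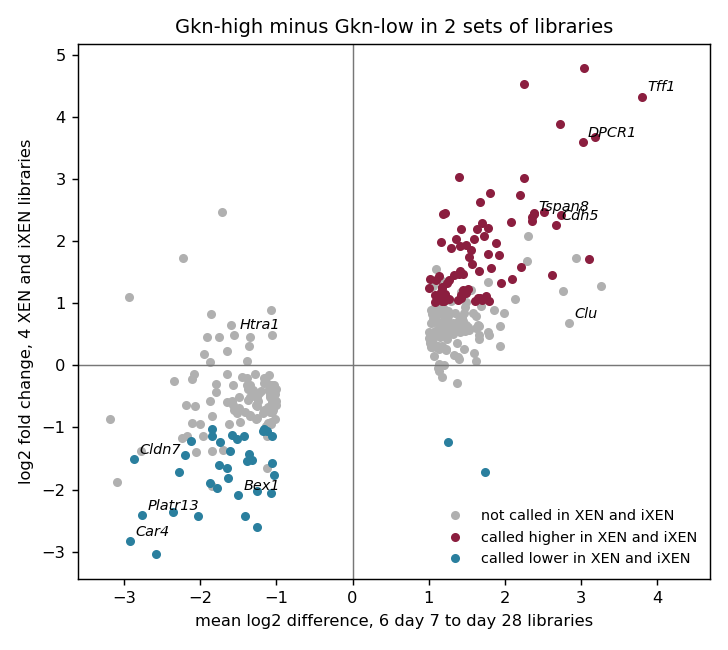
Genes with a difference of at least 1 and the same sign in all 6 day 7 to day 28 libraries, by their mean log2 difference there (x axis) and by the log2 fold change between Gkn-high and Gkn-low cells fitted in the 4 XEN and iXEN libraries (y axis). Of 216 genes on the right, 210 lie above 0 and 80 are called higher, and of 140 on the left, 124 lie below 0 and 35 are called lower.

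Gkn-high cells themselves differed between the days. The sums of Gkn-high cells of the 6 libraries were compared with edgeR over 10861 genes, leaving out Gkn1 and Gkn2. From day 7 to day 14, within the same run, 191 genes (1.76%) were called higher and 83 (0.764%) lower. From day 14 to day 28, 98 (0.902%) were higher and 16 (0.147%) lower, and from day 7 to day 28, 804 (7.4%) were higher and 422 (3.89%) lower. These counts move with single libraries. The 274 genes called between day 7 and day 14 became 78 without day 7 replicate 1 or day 14 replicate 2, and 112 without day 7 replicate 2. The 114 called between day 14 and day 28 became 34, 29 and 37 without day 14 replicate 1, day 14 replicate 2 and day 28 replicate 2. The 1226 called between day 7 and day 28 became 738, 688 and 626 without day 7 replicate 1, day 7 replicate 2 and day 28 replicate 2. Since the limits of the class differ by day, some day 7 cells of the class hold fewer than 3 gastrokine UMIs and none do later.

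From day 7 to day 14, Scgb3a1, Egln3, Clps, Wfdc1 and Nid1 rose most among genes over 50 CPM. Scgb3a1 went from 5.34 and 5.69 CPM to 58.0 and 74.9 (3.49, SE 0.25, adjusted p = 0.0006481). Wfdc1 went from 22.1 and 45.4 CPM to 263 and 278 (2.92, SE 0.33, adjusted p = 0.002426), and Nid1, the basement membrane linker nidogen, from 17.9 and 23.4 to 161 and 143 (2.80, SE 0.37, adjusted p = 0.006102). Clps (3.13) and Egln3, an oxygen-sensing prolyl hydroxylase (3.20), were the others. Dkk1 went from 95.8 and 119 CPM to 11.1 and 27.1 (-2.59, SE 0.39, adjusted p = 0.01129) and Bex1 from 1072 and 1103 to 243 and 245 (-2.24, SE 0.25, adjusted p = 0.002346). Platr13 (-2.31), Gch1, the first enzyme of tetrahydrobiopterin synthesis (-2.12), and Lrrfip1 (-1.89) were the others of the 5 lowest. The calls of Egln3, Platr13 and Lrrfip1 were each lost without some single libraries, that of Egln3 without either day 7 library or day 14 replicate 2, that of Platr13 without day 7 replicate 2 or day 14 replicate 1, and that of Lrrfip1 without either day 14 library. Of 20 parietal endoderm genes 4 rose (Lamb1, Nid1, Fst and Snai1), and of 15 AP-1 genes 2 rose (Egr1 and Dusp1), against 1.76% of all genes.

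From day 14 to day 28, Hamp2 went from 6.20 and 3.34 CPM to 226.6 and 186 (5.43, SE 0.40, adjusted p = 0.00085), with the doubt about its near-identical copies. Htra1 went from 11.3 and 13.9 CPM to 130 and 49.98 (2.84, SE 0.45, adjusted p = 0.02113), and Aqp1 from 17.6 and 22.1 to 98.4 and 170 (2.72, SE 0.31, adjusted p = 0.005584). Tspan8 (2.67) also rose. Rbp4, the plasma carrier of retinol, went from 181 and 138 CPM to 24.9 and 23.0 (-2.77, SE 0.29, adjusted p = 0.005584), and H19 (-3.42), Hist1h1e (-1.59), Bex1 (-1.40) and the replication licensing gene Cdt1 (-1.37) fell. H19 missed the threshold with DESeq2 (adjusted p = 0.06871) and without day 14 replicate 2 or day 28 replicate 2. Bex1 and Cdt1 lost their calls without any of the 4 libraries, Hist1h1e without any but day 28 replicate 1, and Htra1 and Tspan8 without either day 14 library.

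Over the whole span from day 7 to day 28, Mgst2, a microsomal glutathione transferase, went from 2.41 and 3.28 CPM to 116 and 165 (5.48, SE 0.31, adjusted p = 5.426e-05). The transcription factor gene Ebf1 went from 2.07 and 0.985 CPM to 55.6 and 98.3 (5.599, SE 0.44, adjusted p = 0.0001181), and Aqp1 rose by 5.41 (SE 0.38, adjusted p = 7.137e-05). Hamp2 (6.98) and the defensin-like AY761184 (6.03) stood above them. Cldn6, an early embryonic claudin, went from 203 and 388 CPM to 27.8 and 10.3 (-4.00, SE 0.51, adjusted p = 0.001349), and Rbp4 (-3.99), Bex1 (-3.64), Bst2 (-3.03) and Dkk1 (-2.98) also fell, of which Bst2 lost its call without day 7 replicate 2 or day 28 replicate 2. Tff1 did not follow this course, with 0.22 on the log2 scale (adjusted p = 0.8861).

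Over the same span, where 7.4% of all genes were called higher and 3.89% lower, 12 of 15 AP-1 and immediate early genes rose, with a median of 2.01 against 0.00 for all genes, among them Egr1 from 12.1 and 22.0 CPM to 255 and 292 and Fos from 67.6 and 87.5 to 730 and 822. In the same Gkn-high cells the median mitochondrial share was 1.97% and 1.77% at day 7 and 4.23% and 3.76% at day 28, and the ribosomal protein share 35.1% and 34.0% against 27.1% and 28.1%, and the part of RNA quality in the change was not tested. Of 20 parietal endoderm genes 8 rose and none fell, of 5 endothelial and blood genes tested 3 rose (Pecam1, Cdh5 and Tek), and of 20 proliferation genes 4 fell (Ccnb1, Ccnb2, Rrm2 and Cdc20). Of 16 pluripotency genes 7 rose. Dppa5a went from 90.1 and 126 CPM to 1417 and 439, and Zfp42 from 1.2 and 2.1 to 34.7 and 15.8, while Sox2 reached 5.8 and 4.3 CPM from no UMI at day 7. In Gkn-low cells of day 28, which include the cells without an endoderm profile, Sox2 was 85.3 and 95.7 CPM and Zfp42 333 and 400. The part of free RNA from those cells in the values of Gkn-high cells was not tested. Of 13 transport genes 4 rose (Aqp1, Aqp8, Car2 and Cftr) and 5 fell (Atp1b1, Car4, Car12, Slc9a3r1 and Slc12a2).

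Finally, the difference between Gkn-high and Gkn-low cells was tested for a change between days, as the interaction of class and day with the library as a block, over 13582 genes. The classes were made by the rule, and their limits moved between days. The last cell inside the Gkn-high class had 0.00756% and 0.00665% of its UMIs in the pair at day 7, 0.397% and 0.157% at day 14, and 0.279% and 0.754% at day 28. The part of these limits in any change was not tested. From day 7 to day 14, 9 genes (0.0663%) were called with a rising difference and 33 (0.243%) with a falling one, against 0.159% and 0.343% among endoderm cells alone, and this count rose from 42 to 261 or 257 without day 28 replicate 1 or 2 and was 5, 9, 8 and 4 without day 7 replicate 1, day 7 replicate 2, day 14 replicate 1 and day 14 replicate 2. The mean log2 difference of Pdpn, the membrane mucin podoplanin, went from -1.10 at day 7 to 0.19 at day 14 (change 1.30, SE 0.17, adjusted p = 0.005889), and that of Clu from 1.34 to 2.44 (1.08, SE 0.21, adjusted p = 0.04933). Setd4 (1.13) completed the rising genes over 50 CPM. The difference of Platr13 went from -0.96 to -4.04 (-3.12, SE 0.24, adjusted p = 7.936e-05) and that of Cldn7 from -1.64 to -3.99 (-2.40, SE 0.31, adjusted p = 0.005889). S100g, a calcium-binding protein (-1.66), the glucose transporter gene Slc2a3 (-1.65) and Cldn6 (-1.22) followed. Pdpn, Setd4, Clu and Cldn6 lost their calls without any of the day 7 and day 14 libraries, S100g without any but day 7 replicate 2, Slc2a3 without day 7 replicate 1 and Cldn7 without day 7 replicate 2. The visceral endoderm genes Apom, Amn, Cubn and Cdh1 were among the 33.

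From day 7 to day 28, 998 genes (7.35%) had a rising and 897 (6.6%) a falling difference, and among endoderm cells alone 428 of 12543 (3.41%) and 320 (2.55%). The class limits moved over this span as well, and their part in these counts and in those of the lists below was not tested. Hamp2 (4.54), Hamp (4.27), Mgst2 (4.08), Foxo4 (3.53) and the proteoglycan gene Bgn (3.40) rose most, with endoderm-only values of 4.23, 3.81, 3.95, 3.30 and 2.77. Tdgf1 (-3.94), Trh (-3.599), Zfp42 (-2.93), Tdh (-2.78) and Bcat1 (-2.67) fell most, with endoderm-only values of -2.42, -1.33, -1.11, -1.14 and -1.62, of which those of Trh, Zfp42 and Tdh did not pass the test. Zfp42 also lost its call without day 7 replicate 1. Of 16 AP-1 genes 11 rose (8 among endoderm cells alone), of 20 proliferation genes 14 fell (13), and of 20 parietal endoderm genes 11 rose (1). Of 20 pluripotency genes 10 fell (2), and of 13 endoderm regulators 5 rose (1). In Gkn-low cells the endoderm profile covered 96.7% and 96.1% of cells at day 7 and 59.1% and 50.7% at day 28. The part of this mixture in the counts over all cells was not tested. The pluripotency and parietal endoderm lists define that profile, so that their endoderm-only counts are in part set by the filter. The same holds for the endoderm-only values of Tdgf1 and Zfp42.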

How the data were processed

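The authors made droplet-based 3′ single-cell libraries (10x, version 2 chemistry), processed the reads with SEQC against mouse mm10, and deposited whole-number UMI counts per cell and gene for 20 libraries. Their cluster column was not used, and the gastrokine-high cells were taken by the rule stated above. The cells, gene lists and comparisons were chosen with earlier results of these data known. UMIs were summed per library and class. Levels are CPM, and differences between classes are log2 of CPM with 1 added, as mean ± SD over 6 libraries, with 10 CPM required in the higher class and no test.

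Tests used edgeR 4.0.16 in R 4.3.3 (TMM scaling, filterByExpr, quasi-likelihood, Benjamini-Hochberg), with calls limited to adjusted p-values under 0.05 and log2 changes of 1 or more, with DESeq2 1.42.0 as an alternative. Whole libraries were compared in 1 model of all conditions, and class by day and class in XEN and iXEN with the library as a block. Gkn1 and Gkn2 were left out of the counts of called genes between classes and within Gkn-high cells. Named genes were the proposed markers, members of the lists, the 12 highest and 12 lowest mean differences over 50 CPM with the same sign in 6 libraries, the 5 highest and 5 lowest called genes over 50 CPM per comparison, and the 5 genes most correlated with the gastrokine share, without mitochondrial genes and unnamed gene models. The scripts were tested on simulated counts, where 86% of genes changed by 2 on the log2 scale were recovered for day 14 against day 7 in Gkn-high cells (10635 genes), 73% for class by day (13002 genes), 93% in XEN and iXEN (12869 genes) and 56% for whole libraries (16245 genes).

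Duplicates differed beyond sampling noise and were counted as 2 samples (chi-square per degree of freedom 22.4 to 33.0 in Gkn-high cells). Intervals and floors cover counting error only. Of 22936 gene symbols in the files, 22012 were placed in GENCODE vM21. Alternatives were the share taken, thinning, leaving out libraries or deep cells, the collagen limit, endoderm cells alone, pseudocounts, filters, scaling and the replicate block. Some named genes are not reported here.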

Additional observations from a re-analysis of the deposited data

Results flagged for a closer look

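For 20 of the proposed markers and of the 12 highest and 12 lowest genes the difference between Gkn-high and Gkn-low cells itself changed between days, by the interaction of class and day in edgeR, and each value below is that change on the log2 scale. Of all genes, 0.0663% had a rising and 0.243% a falling difference from day 7 to day 14, and 7.35% and 6.6% from day 7 to day 28. Apart from Aqp1, the 20 genes were chosen on their difference in the same libraries, so that their number is no support. From day 7 to day 14, within 1 run, the difference changed by -3.115 for Platr13 (adjusted p = 7.94e-05), -2.395 for Cldn7 (adjusted p = 0.00589), -1.177 for Ybx3 (adjusted p = 0.0345) and 1.082 for Clu (adjusted p = 0.0493). Among endoderm cells alone these were -2.948, -2.347, -1.122 and 1.063.

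From day 7 to day 28, where day and run cannot be told apart, the difference of 12 of these genes grew. Aqp1 is a proposed marker, and the others were chosen on their mean difference over the same libraries, to which day 28 contributed. Their growth is therefore not independent of the choice, and their adjusted p are given as description only. At day 7, 31.1% and 44.8% of Gkn-high cells also held fewer than 3 gastrokine UMIs. The change was 4.539 for Hamp2, 3.317 for Clu, 3.063 for Tff1, 3.033 for Aqp1, 2.334 for Tspan8, 2.134 for Tesc, 2.02 for Wfdc1, 1.939 for Bace2 and 1.837 for Pi16. Among endoderm cells alone the same genes kept 4.231, 2.776, 2.531, 2.18, 1.941, 1.621, 1.14, 1.18 and 1.042, with adjusted p between 2.26e-06 and 0.0482. Scgb3a1 (1.785), DPCR1 (1.436) and Cdh5 (1.291) did not pass among endoderm cells alone, at 1.451 (adjusted p = 0.0695), 0.65 (adjusted p = 0.141) and 0.307 (adjusted p = 0.47).

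Of the genes lower in Gkn-high cells, the change from day 7 to day 28 was -2.401 for Platr13, -2.051 for Ybx3, -1.835 for Bex1, -1.719 for Cldn7 and -1.36 for Coil, with -1.583, -1.476, -1.377, -3.071 and -1.33 among endoderm cells alone. Stmn2 (-2.139), Hspb1 (-1.827) and Pou5f1 (-1.6) were at 0.631, 0.526 and -0.123 among endoderm cells alone and did not pass there. Pou5f1 is in the list that defines the endoderm profile, so that its shift is in part set by that filter.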

How the results depend on the processing

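Genes higher in Gkn-high cells in every library numbered 219, with 141 for the top 20% of cells, 131 in thinned cells, 104 with 10 CPM added, 478 without both day 7 libraries, 84 without both day 28 libraries and 141 to 324 without single libraries. Genes lower numbered 147, with 230 for the top 5%, 88 among endoderm cells, 45 with 10 CPM added, 408 with no minimum CPM, 343 and 72 without both day 7 or both day 28 libraries, and 92 to 238 without single libraries. The difference of Igf1 turned to -0.18 among endoderm cells and -0.14 without both day 28 libraries, was 0.60 without both day 14 libraries, and ranged from -0.0023 (without day 28 replicate 1) to 0.41 without single libraries. Leaving out both libraries of a day and fitting XEN or iXEN alone were chosen after seeing the data.

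In Gkn-high cells, day 14 against day 7 gave 274 called genes, 423 with DESeq2, 789 without the filter on low counts and 78 to 198 without single libraries. Day 28 against day 14 gave 114, 198, 587 and 29 to 89, and day 28 against day 7 gave 1226 and 626 to 1246 without single libraries. The class by day change to day 14 gave 42, with 228 without the filter, 16 without the collagen limit and 4 to 261 without single libraries, and that to day 28 gave 1895 and 748 among endoderm cells. XEN and iXEN gave 556, 1179 with the XEN libraries alone and 320 to 457 without single libraries.

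For whole libraries, day 7 against XEN lost its call with DESeq2 (Gkn1 -2.58, Gkn2 -2.52), and Gkn2 also without the collagen limit (-2.63). Without single libraries it ranged from -3.19 to -1.53 for Gkn1 and from -2.85 to -2.12 for Gkn2. Day 14 against XEN passed without the filter (1.86 and 1.89) and with the compared libraries alone (1.89 and 1.92), as did Gkn2 at day 28 (2.17 and 2.21). Gkn1 at day 28 against XEN ranged from 2.16 to 3.84. Day 14 against day 7 lost its Gkn1 call without the collagen limit (4.55), with the compared libraries alone (4.48) and without single libraries (3.95 to 4.90), and Gkn2 passed with DESeq2 (4.45) and without the filter (4.47). Gkn2 at day 28 against day 14 turned to -0.27 and -0.36 without day 14 or day 28 replicate 2, and reached 1.18. The causes were not tested.

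Replicate numbers were not used to pair the samples. Deviations of same-numbered Gkn-high sums correlated at 0.35 between day 7 and day 14, 0.03 between day 7 and day 28, and -0.08 between day 14 and day 28. Pairing of day 7 with day 14 is therefore not excluded. With the replicate number as a block the counts were 335, 120 and 1316, and day 7 against XEN for Gkn2 lost its call (-2.54). Of 249 alternative values for these comparisons, 181 stayed on the same side of the threshold or, for counts, within 1.5 times. Of the rest, 39 counts moved by more, 19 values lost the call, 8 gained it and 2 changed sign. Of 666 for genes named in tested comparisons, 599 kept the call and 67 lost the call with the same direction.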
